A study of Mus musculus with 4 samples.

Results

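The expressed Zfp genes, mouse genes whose numbered names stand for zinc finger protein, were compared between B16F10 melanoma cells with and without a knockdown of Lmna, which encodes the A-type lamins. A gene was a member if its symbol was Zfp followed only by digits, if it was not Zfp36, and if its raw counts summed to at least 100 over the 4 libraries. This gave 103 genes of the 336 with such a symbol and of the 24421 gene symbols in the count matrix. The members were thus selected on their summed counts, with no limit on the difference between the groups. The sum runs over both groups, so a gene could reach it through the group where it was higher. Zfp62 had 40 and 61 counts in the controls and 3 and 12 in the knockdown. Zfp292 had 15 and 27 against 38 and 55. Calls among the members are therefore not wholly independent of the rule. Zfp36, which encodes tristetraprolin, a CCCH protein that binds messenger RNA, was left out.

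B16F10 is a pigmented, metastatic melanoma line of the C57BL/6 mouse. Cells were transduced with lentivirus, selected with puromycin at 2.5 µg/mL and grown in DMEM with 10% fetal bovine serum, and both groups carried a vector and were under the same selection. The shControl group (n = 2 libraries) received the control vector, which the labels call a control shRNA and the methods an empty vector. The shLmna group (n = 2 libraries) stably expressed a hairpin against exon 8 of Lmna. RNA was measured by a bulk form of MARS-seq, a method that sequences only the 3′ end of each transcript. No single-cell cloning was described, and no source says whether replicate libraries stem from different transductions or cultures, so the p-values measure the spread between these libraries, which may be technical.

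Most Zfp proteins carry C2H2 zinc fingers, short folds in which a pair of cysteines and a pair of histidines hold a zinc ion and in which neighbouring side chains read DNA bases. Many mammalian members also carry a KRAB box, which recruits the corepressor Trim28 (KAP1) and through it the H3K9 methyltransferase Setdb1 and heterochromatin proteins, and are best known for silencing retroelements. Others bind RNA, ubiquitylate proteins or act as ordinary transcription factors, and A-type lamins anchor part of the silent chromatin at the nuclear edge.

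The first zinc finger of 6 proteins is printed here, because their genes had the 3 largest falls and the 3 largest rises among the members. Each run is the coding strand, 5′ to 3′, on GRCm38 (mm10), from GENCODE M21 transcripts, and the capitals mark the codons of the 2 cysteines and the 2 histidines that hold the zinc.
Zfp422, chr6:116626806-116626868, minus strand, exon 2 of 2: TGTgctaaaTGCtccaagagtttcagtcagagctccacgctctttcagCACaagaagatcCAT
Zfp62, chr11:49215459-49215521, plus strand, exon 4 of 4: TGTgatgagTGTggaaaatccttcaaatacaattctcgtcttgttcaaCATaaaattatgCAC
Zfp579, chr7:4994707-4994769, minus strand, exon 2 of 2: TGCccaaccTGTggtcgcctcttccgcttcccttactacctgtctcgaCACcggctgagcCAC
Zfp260, chr7:30104749-30104811, plus strand, exon 3 of 3: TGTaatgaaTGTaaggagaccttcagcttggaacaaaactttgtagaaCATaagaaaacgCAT
Zfp292, chr4:34811291-34811353, minus strand, exon 8 of 8: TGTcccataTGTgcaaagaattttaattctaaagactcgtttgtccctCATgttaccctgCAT
Zfp266, chr9:20499785-20499847, minus strand, exon 9 of 9: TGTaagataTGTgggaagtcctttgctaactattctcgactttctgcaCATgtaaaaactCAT
In all 6 the finger lay in the last exon. Over the 15 pairs these runs of 63 bases were identical at 33.3% to 60.3% of positions. All 6 shared a base at 11 positions, and 8 of those lay among the 12 bases of the zinc-holding codons. The fingers were located by a pattern that requires these cysteines and histidines, which fixes those 8 bases. The Zfp422 run is the first of 5 fingers, that of Zfp62 of 25, that of Zfp579 of 8, that of Zfp260 of 12, that of Zfp292 of 14 and that of Zfp266 of 9. The members as a whole held a median of 8.

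The 4 libraries held 2494880 to 3808843 counts. Lmna itself went from 2826 and 2684 counts in the controls to 331 and 480 in the knockdown, a log2 fold change of -2.61 (SE 0.142, adjusted p = 7.93e-06), in the direction of the labels. None of the 7 melanocyte and melanoma markers was at 0, and their summed CPM, a level relative to the counts of the library, was 20891 and 20117 in shControl and 21156 and 24602 in shLmna. Tyr was close to 0, with 12 counts over the 4 libraries and at most 1.91 CPM, and was not among the genes tested. Single markers moved both ways, with log2 fold changes of -0.89 for Sox10 (adjusted p = 0.00161), 0.51 for Mlana (adjusted p = 0.0051) and 0.41 for Pmel (adjusted p = 0.0258). The 3 leukocyte markers were at 0 in every library, and markers of endothelium summed to at most 1.07 CPM. The markers of epithelium summed to 5.58 and 2.68 CPM in shControl and to 0 and 0.82 CPM in shLmna. The 4 fibroblast markers summed to 7.12 and 7.23 CPM in shControl and to 2.37 and 4.90 CPM in shLmna. The part of these marker sets in the Zfp results was not tested. The CPM rest on library totals over the tested genes, adjusted by the TMM factors of edgeR. Since only the 3′ end is counted, a level does not grow with transcript length.

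The expressed Zfp genes were centred near zero as a family, and a small number of single members moved far. Their summed level was 3171 and 3432 CPM in shControl and 3149 and 3213 CPM in shLmna, so that the groups overlapped. The median log2 fold change (shLmna minus shControl) over the 103 members was 0.01, with quartiles of -0.27 and 0.29, against -0.00 over the 9150 genes tested. Of the members 51 lay below zero and 52 above it, and 77 lay within 0.5 on either side.

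An adjusted p under 0.05 (edgeR quasi-likelihood F test, two-sided, Benjamini-Hochberg adjustment over all genes tested) was reached by 13 members, 7 of them lower and 6 higher in shLmna. That is 12.6% of members, against 15.2% of all genes tested, where 9.74% were lower and 5.48% higher. With the further limits used by the study, a log2 fold change beyond 1 and a mean normalized count above 5, 5 members were called lower and 4 higher. That is 8.74% of members, against 7.64% of all genes tested, of which 5.88% were called lower and 1.76% higher. The groups did not overlap for 62 members (60.2%), against 60.1% of all genes tested. Over both directions these shares of members were near their backgrounds. By direction the called members were 5 lower and 4 higher, against 538 lower and 161 higher of all genes tested. This difference in split rests on few members and was not tested. Before adjustment, 20 members (19.4%) had a p under 0.05, against 30.3% of all tested genes whose summed counts lay in the members' range. The median SE was 0.237 for the members and 0.199 for those genes. In bulk RNA a lower level in fewer cells and a lower level in every cell cannot be told apart.

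**Figure D1:**
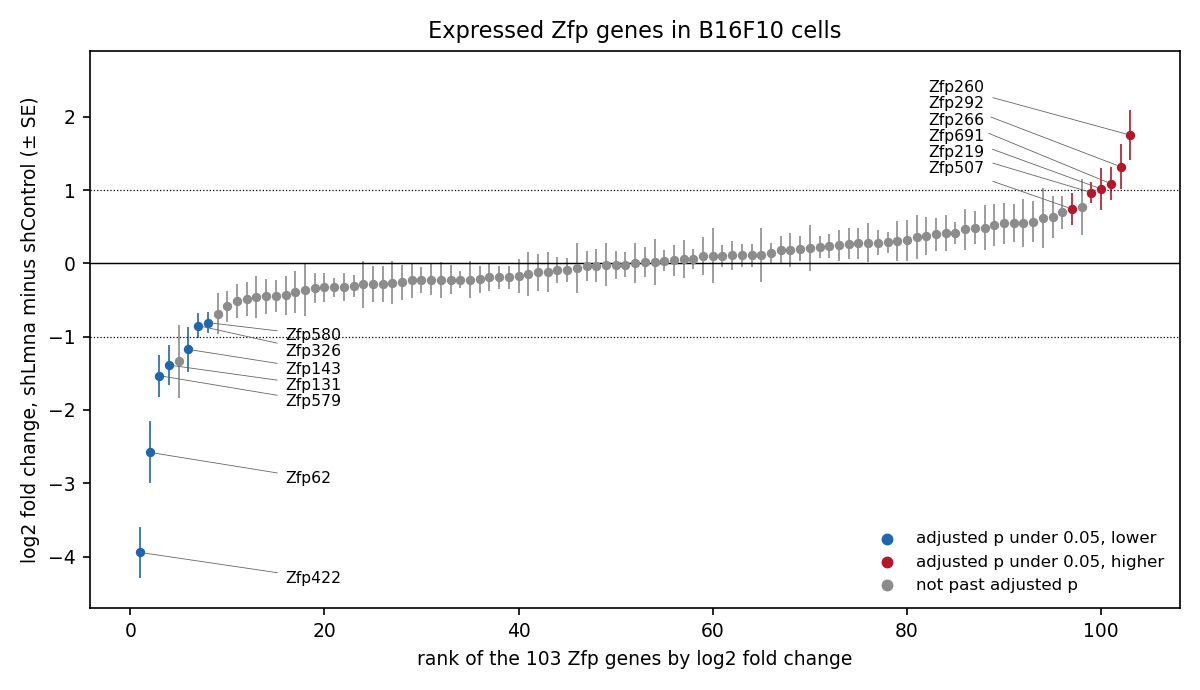
The log2 fold change (shLmna minus shControl, vertical axis, bars are ± SE) of each of the 103 expressed Zfp genes, ordered by rank along the horizontal axis, with blue for the 7 lower and red for the 6 higher genes with an adjusted p under 0.05 and dotted lines at a log2 fold change of 1 on either side. Most genes lie near zero, with a longer tail on the lower side that ends at Zfp422 (-3.94) and a shorter one on the higher side that ends at Zfp260 (1.75).

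Of the genes that fell, Zfp422 fell furthest. Zfp422, linked in the mouse to tooth formation, fell from 130 and 164 counts in the controls to 3 and 14. These counts correspond to 40.3 and 43.9 CPM against 1.19 and 3.81 CPM. Both knockdown libraries were far below both controls, and the log2 fold change was -3.94 (SE 0.352, adjusted p = 7.86e-05), a level 15.4-fold lower. It kept an adjusted p under 0.05 when any 1 library was left out, with log2 fold changes from -5.09 without shLmna replicate 2 to -3.45 without shLmna replicate 1. Of its counted 3′ end 5.67% of 31-base words also occurred in other genes. Zfp422 lies on the minus strand of chromosome 6 at 116624016 to 116628999.

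Zfp62, a protein with 25 fingers, fell from 40 and 61 counts to 3 and 12. Its log2 fold change was -2.58 (SE 0.422, adjusted p = 0.00321), and the groups did not overlap. Without shLmna replicate 2 it was -3.54 and without shLmna replicate 1 it was -2.12, both with an adjusted p under 0.05. With an offset for the GC content of the 3′ end, which is 31% here, the log2 fold change was -1.55 (adjusted p = 0.0337). No other gene shared a 31-base word with its 3′ end. Both Zfp422 and Zfp62 were down to 3 counts in shLmna replicate 1.

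Zfp579 fell more moderately from a higher level, with 184 and 361 counts in shControl against 49 and 120 in shLmna. On the CPM scale this was 57.0 and 96.7 against 19.4 and 32.7, so that the replicates differed within each group but the groups did not overlap. This was a log2 fold change of -1.53 (SE 0.287, adjusted p = 0.00669). It ranged from -1.97 without shLmna replicate 2 to -1.10 without shControl replicate 2, and without shLmna replicate 1 (-1.23) the adjusted p was 0.0555. Zfp580, a short protein with 3 fingers that has been studied mainly in vascular endothelium, lies in the same row of genes and is among the most abundant members. Its counts were 302 and 421 in shControl against 150 and 215 in shLmna. Its log2 fold change was -0.81 (SE 0.147, adjusted p = 0.00576), below the limit for a call. Without shLmna replicate 1 or 2 its adjusted p was 0.055 or 0.0819. Zfp580 lies within the annotated span of Ccdc106 on the same strand, a gene with 20 counts in all. Its counted end also overlaps the span of Gm15510 on the opposite strand. Whether exons overlap was not checked.

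Of the 19 members listed as transcription or chromatin factors, 2 fell and 3 rose by adjusted p, which is 26.3% against 15.2% of all genes tested. This role list was chosen with earlier results of these data known, so the share cannot be read as an excess. Zfp131, a BTB domain protein, fell from 59 and 95 counts to 20 and 32. The groups did not overlap and the log2 fold change was -1.39 (SE 0.273, adjusted p = 0.00842). This call did not outlast an offset for the GC content of the 3′ end, where the log2 fold change was -0.45 with an adjusted p of 0.251. That 3′ end has a GC content of 31.4%, where the members span 31% to 69.3%. Its call was also lost without shLmna replicate 1 (adjusted p = 0.0588) and without shLmna replicate 2 (adjusted p = 0.0709).

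Zfp143, an activator of small nuclear RNA promoters that also binds many gene promoters, fell from 51 and 49 counts to 19 and 20. Its levels were 15.8 and 13.1 CPM in shControl against 7.51 and 5.45 CPM in shLmna, with no overlap. The change was -1.18 on the log2 scale (SE 0.303, adjusted p = 0.0282). With DESeq2, the tool of the study, the adjusted p was 0.224, and without shLmna replicate 1 or 2 the edgeR value was 0.0765 or 0.212.

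Zfp326, a subunit of the DBIRD complex that couples transcript elongation to splicing, was the member of the RNA and protein group that fell. It had 186 and 254 counts in shControl against 81 and 137 in shLmna, with no overlap on the CPM scale (57.6 and 68.0 against 32.0 and 37.3). This was a log2 fold change of -0.85 (SE 0.171, adjusted p = 0.00959), short of the limit for a call. Without shLmna replicate 1 or 2 the adjusted p was 0.0959 or 0.0635.

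Zfp260, a partner of Gata4 in the heart, rose furthest. It had 15 and 43 counts in shControl against 73 and 98 in shLmna, which is 4.65 and 11.5 CPM against 28.9 and 26.7 CPM. The control replicates differed more from each other than the knockdown replicates did, and both were below the latter. This was a log2 fold change of 1.75 (SE 0.344, adjusted p = 0.00842), a level 3.36-fold higher. It was 1.27 without shControl replicate 1 and 2.56 without shControl replicate 2, and without shLmna replicate 2 the adjusted p was 0.0705.

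Zfp292, a very long protein of 2698 residues linked to neurodevelopmental disorders, rose from 15 and 27 counts to 38 and 55. In CPM the knockdown replicates both stood at 15, above 4.65 and 7.23 in the controls. On the log2 scale the gene rose by 1.32 (SE 0.307, adjusted p = 0.0185). DESeq2 gave an adjusted p of 0.135, and without shLmna replicate 1 or 2 edgeR gave 0.106 or 0.137.

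Zfp219, a cofactor of Sox9 in cartilage, rose with closely matching replicates. It had 123 and 142 counts in shControl against 187 and 274 in shLmna. The levels were 38.1 and 38.0 CPM against 74.0 and 74.7 CPM, so that the gap was far wider than the spread in either group. On the log2 scale the change was 0.96 (SE 0.147, adjusted p = 0.00205), just short of the limit for a call, and the adjusted p stayed under 0.05 with any 1 library left out. The 3′ end of Zfp219 overlaps that of Arhgef40 on the opposite strand. Arhgef40 had 241 counts and a log2 fold change of -0.47 (adjusted p = 0.219), and since the strand setting of the counting was not stated, reads of this pair cannot be told apart with certainty.

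Zfp691 rose from 21 and 24 counts to 34 and 47. Its CPM were 6.50 and 6.43 against 13.4 and 12.8, with a log2 fold change of 1.02 (SE 0.285, adjusted p = 0.0396). Zfp507 rose from 48 and 57 counts to 65 and 91, a log2 fold change of 0.74 (SE 0.218, adjusted p = 0.0472). Both sat near the threshold. Fits to 3 libraries gave adjusted p values of 0.0521 to 0.201 for Zfp691 and of 0.0606 to 0.177 for Zfp507, so that neither passed when any 1 of the 4 libraries was omitted. With DESeq2 they had adjusted p values of 0.336 and 0.311.

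**Figure D2:**
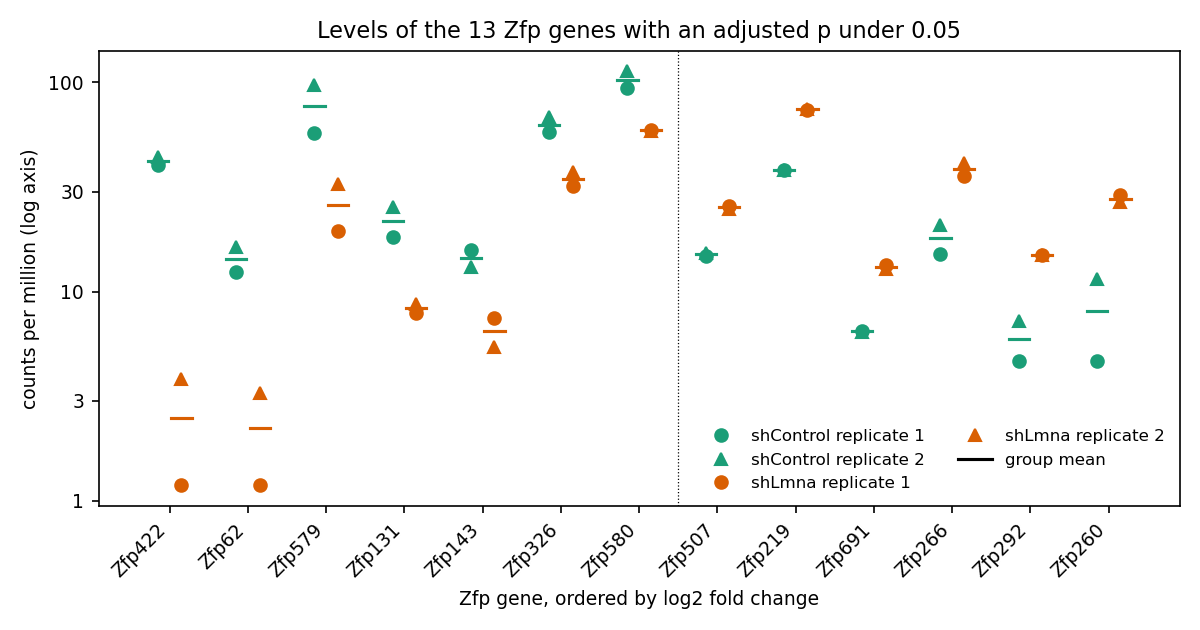
Levels in CPM on a log axis for the 13 Zfp genes with an adjusted p under 0.05, ordered by log2 fold change along the horizontal axis, with green for shControl, orange for shLmna, circles for replicate 1, triangles for replicate 2 and short lines for the mean of each group. In all 13 genes both libraries of one group lie above both of the other, and Zfp422 and Zfp62 reach 1.19 CPM in shLmna replicate 1.

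The KRAB proteins, the largest group with a shared role, held 1 gene that passed the test. A match to a pattern for the KRAB box in the translated coding sequence was found in 23 members, which is 22.3% of the members against 40.7% of the 332 Zfp genes of any level with a coding sequence. Divergent boxes may be missed by this pattern. KRAB genes may thus sit among the other 80 members, and the values given for the group describe the 23 matches only. None of the 23 was lower and 1 was higher by adjusted p, which is 4.35% against 15.2% of all genes tested. Their median log2 fold change was 0.24, with a range of -0.45 to 1.09, and 14 of 23 lay above zero. They were also low in abundance, with a median of 164 counts over the 4 libraries, against 352 for the other 80 members, and a median SE of 0.284 against 0.216. The median number of fingers was 11 in the KRAB members and 7 in the others.

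The member of the KRAB group that passed was Zfp266. It had 49 and 78 counts in shControl against 90 and 151 in shLmna, or 15.2 and 20.9 CPM against 35.6 and 41.1 CPM. The groups did not overlap, and the log2 fold change was 1.09 (SE 0.226, adjusted p = 0.0106). Without shControl replicate 1 it was 0.89, under the limit for a call, and without shLmna replicate 2 the adjusted p was 0.101. With the GC offset it was 1.73. The counted end of Zfp266 overlaps the long noncoding RNA Gm26733 on the opposite strand.

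The other members that matched the KRAB pattern had log2 fold changes between -0.45 (Zfp7) and 0.77 (Zfp426), and 9 of the 23 matches lay below zero. KRAB genes that the pattern missed are not in this range. Zfp809, which silences retroviruses by binding their primer binding site, had 49 and 57 counts in shControl against 57 and 74 in shLmna (log2 fold change 0.48, SE 0.225, adjusted p = 0.185). Zfp568, which silences a placental transcript of Igf2, had 42 and 35 counts against 43 and 44 (log2 fold change 0.36, SE 0.295, adjusted p = 0.454). Zfp1 had 80 and 72 counts against 102 and 115, with a log2 fold change of 0.70 (SE 0.227, adjusted p = 0.0692). These 3 genes were picked for their known roles or their values after the results were seen, all 3 lie above zero, and none of them passed the test.

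A list of corepressors of KRAB proteins and other genes of silencing by H3K9 methylation did not move as one. Of the 20 genes on this corepressor list 17 were tested. By adjusted p 2 were lower and 2 higher (23.5%, against 15.2% of all genes tested), and the median log2 fold change was -0.05. The list was chosen with earlier results of these data known, so its share cannot be read as an excess. Trim28, the scaffold that KRAB boxes bind, fell from 2081 and 2744 counts to 1036 and 1618. This was 645 and 735 CPM against 410 and 441 CPM, with a log2 fold change of -0.70 (SE 0.124, adjusted p = 0.00519). Without shLmna replicate 1 or 2 the adjusted p was 0.0882 or 0.0676. Trim28 was thus lower in both knockdown libraries, and none of the 23 KRAB members was lower by adjusted p. Setdb1, the H3K9 methyltransferase of this pathway, had 121 and 153 counts against 98 and 114, with overlapping groups (log2 fold change -0.18, adjusted p = 0.571). The study reported reduced SETDB1 protein in knockdown B16F10 cells by Western blot. These RNA counts do not measure protein.

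Morc3, an ATPase with a role in silencing retroelements, fell from 41 and 72 counts to 2 in each knockdown library, with a log2 fold change of -4.56 (SE 0.488, adjusted p = 0.000261). Fam208a, a subunit of the HUSH complex, had 3 and 1 counts in shControl against 8 and 16 in shLmna (log2 fold change 2.66, SE 0.702, adjusted p = 0.031). These are very low counts, and DESeq2 gave an adjusted p of 0.24.

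**Figure D3:**
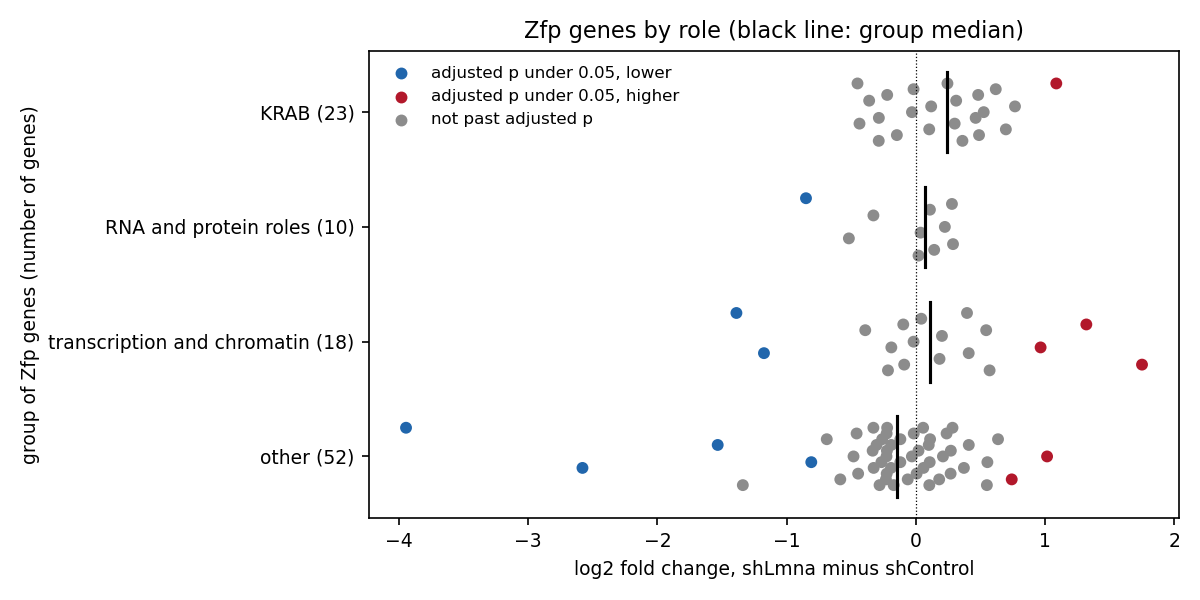
The log2 fold change (shLmna minus shControl, horizontal axis) of the 103 Zfp genes in 4 role groups, with 1 point per gene, blue and red for adjusted p under 0.05 and a black line at the median of each group. Zfp90, both a KRAB protein and a listed transcription factor, is drawn among the 23 matches to the KRAB pattern. This leaves 18 genes in the transcription and chromatin group. The KRAB matches spread from -0.45 to 1.09, and the 3 genes that fell furthest lie among the other 52.

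The remaining groups had medians between -0.15 and 0.18. The 10 members with RNA or protein roles had a median log2 fold change of 0.07, and 1 of them (10%), Zfp326, passed. Zfp598, the ubiquitin ligase that marks collided ribosomes, had 279 and 340 counts against 266 and 335 (log2 fold change 0.14, SE 0.136). Zfp451, a SUMO ligase, had 104 and 101 counts against 44 and 86 (log2 fold change -0.52, SE 0.231, adjusted p = 0.165). The 19 transcription and chromatin factors had a median of 0.18 and ranged from -1.39 to 1.75. Zfp410, an activator of the Chd4 gene, had 129 and 137 counts against 83 and 155 (log2 fold change -0.02, SE 0.19), and Chd4 itself had a log2 fold change of 0.16 (adjusted p = 0.434). The 52 members with no listed role had a median of -0.15, with 4 lower and 2 higher (11.5%).

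Among the 8 most abundant members 1 passed the test. Zfp207 (BuGZ), which loads Bub3 onto kinetochores, was the most abundant at 2807 counts in all. It had 751 and 883 counts in shControl against 432 and 741 in shLmna, or 233 and 236 CPM against 171 and 202 CPM. The groups did not overlap, and the log2 fold change was -0.33 (SE 0.128, adjusted p = 0.117). With the GC offset it was -0.44 with an adjusted p of 0.0409. Zfp428 followed with 519 and 596 counts against 336 and 519 (log2 fold change -0.22, SE 0.119, adjusted p = 0.246).

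The next were Zfp637 (log2 fold change 0.41, SE 0.151, adjusted p = 0.1), Zfp771 (0.28, SE 0.165), Zfp598, and Zfp384 (-0.19, SE 0.155), an activator of matrix genes. Zfp580 and Zfp414 (0.06, SE 0.14) complete the 8 most abundant. Of these 8 only Zfp580 passed in the main edgeR fit, which used all 4 libraries and group as the only term. In other edgeR fits to all 4 libraries more of them passed. Zfp637 did with the replicate number as a block (adjusted p = 0.0255) and with no filter on low counts (adjusted p = 0.0459). Zfp771 passed with the block and the GC offset together (adjusted p = 0.0139). Without shControl replicate 2 the log2 fold change of Zfp637 was 0.59.

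At the other end, the members nearest the minimum of 100 counts were Zfp959 with 101 and Zfp646 with 103, and just outside it lay Zfp141 with 99 and Zfp866 with 97. Their log2 fold changes were 0.49 for Zfp959, -0.06 for Zfp646, 0.32 for Zfp141 and -0.08 for Zfp866. Below the minimum lay 233 Zfp genes, of which 52 had no count and 61 were tested. Of these 61, 7 were called lower and 2 higher, which is 14.8% against 7.64% of all genes tested. That background is not limited to low counts. Tested genes with at least 100 counts were called in 6.31%, so those below 100 counts were called more often than 7.64%. The 14.8% can therefore not be read as an excess particular to Zfp genes. A member with a large value that did not pass was Zfp275, with 35 and 59 counts in shControl against 4 and 30 in shLmna, where the 2 knockdown libraries differed widely (log2 fold change -1.34, SE 0.502, adjusted p = 0.106).

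Zfp genes lie in clusters along the mouse genome, and 26 of the 103 members (25.2%) were on chromosome 7, which holds 7.51% of all tested genes with a position. With at most 150 kb between neighbours, 32 members formed 11 runs. In 1 run more than 1 member passed the test. This run, on chromosome 7 from 4915217 to 5053723, holds Zfp628, Zfp579, Zfp524, Zfp865 and Zfp580. Zfp579 and Zfp580 fell as described, and the others had log2 fold changes of -0.23 (Zfp628), -0.22 (Zfp524) and -0.46 (Zfp865) with adjusted p from 0.326 to 0.563. All 5 values were thus negative, and none of the 5 proteins matched the KRAB pattern.

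In the other runs no more than 1 member passed. On chromosome 7 from 29893333 to 30107622, Zfp260 rose, and its neighbours, the KRAB genes Zfp27 (-0.02), Zfp74 (0.31) and Zfp568 (0.36), did not pass. On chromosome 9, Zfp426 (0.77, SE 0.387, adjusted p = 0.218) lies next to Zfp266 (1.09). A second run of 5 on chromosome 7 and a run of 4 on chromosome 6 held no member that passed, with values between -0.45 and 0.28.

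**Figure D4:**
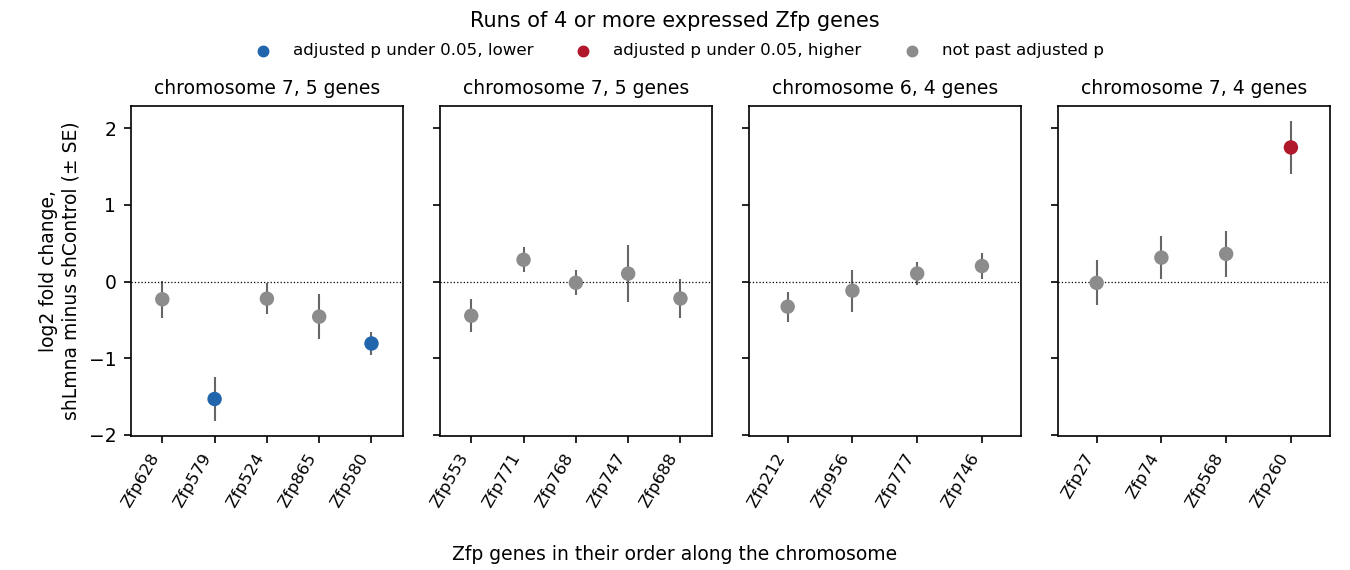
The log2 fold change (shLmna minus shControl, vertical axis, bars are ± SE) of the members of the 4 runs of 4 or more neighbouring Zfp genes, in their order along the chromosome, with blue and red for adjusted p under 0.05. In the first run all 5 genes lie below zero and 2 of them, Zfp579 and Zfp580, passed, while in the last run Zfp260 (1.75) stands above 3 neighbours that lie between -0.02 and 0.36.

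The GC content of the counted 3′ end is given beside these results because genes with an AU-rich end fell often in these libraries. Of all tested genes with a GC content of at most 42% in the final 1000 transcript bases, 16.5% were called lower and 3.95% higher, against 1.62% and 1.4% from above 42% to 50% and 1.64% and 0.419% above 50%. Of the 31 members in the AU-rich class 3 were called lower and 3 higher. Those called lower were Zfp422 (39.1%), Zfp62 (31%) and Zfp131 (31.4%), and those called higher were Zfp260 (37.9%), Zfp292 (34.7%) and Zfp266 (32.7%).

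The members in this class were thus called lower in 9.68% and higher in 9.68%. Among the 34 members of the middle class 1 was called lower (Zfp143), and among the 38 of the GC-rich class 1 was called lower (Zfp579, 62.4%) and 1 higher (Zfp691, 54.2%). Across the 103 members GC content and log2 fold change had a Pearson r of 0.02 and a Spearman rho of -0.11. GC content and the size of the log2 fold change had an r of -0.29 and a rho of -0.31. These describe genes that share the same 4 libraries and are not independent replicates. With the GC offset 8 of the 9 called members kept an adjusted p under 0.05, and the exception was Zfp131. What lies behind the falls of AU-rich ends was not tested.

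**Figure D5:**
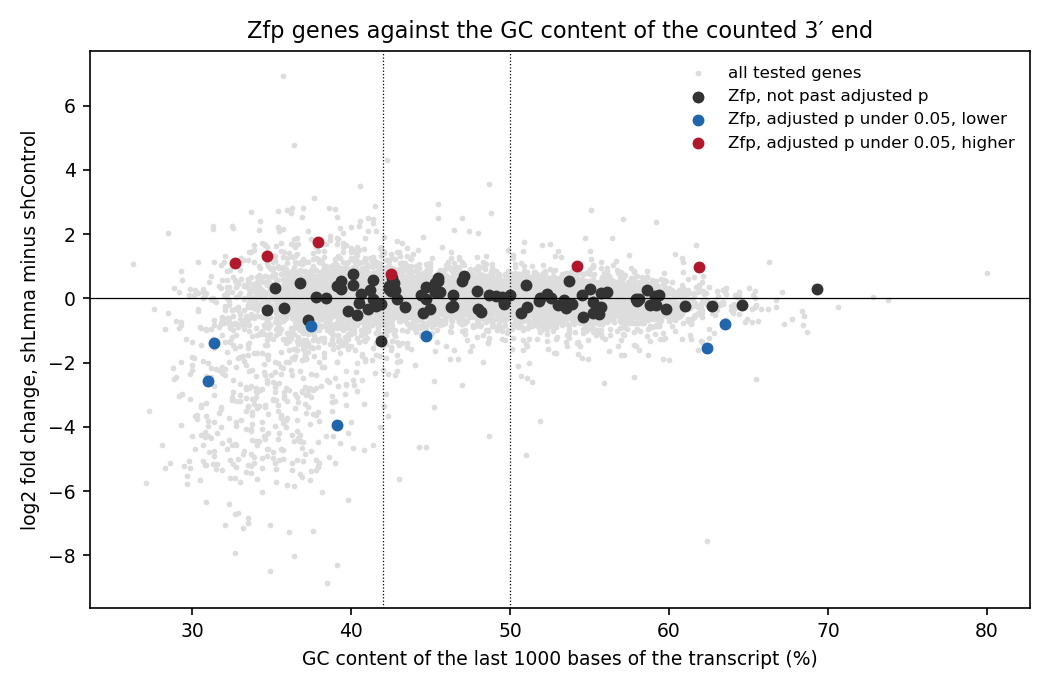
The log2 fold change (shLmna minus shControl, vertical axis) against the GC content of the final 1000 transcript bases (horizontal axis, in percent), with 1 point per gene, pale grey for all tested genes, black for Zfp genes that did not pass and blue or red for those with an adjusted p under 0.05. Dotted lines mark 42% and 50%, and the cloud of all genes has a deep lower tail left of the first line, where Zfp422, Zfp62 and Zfp131 lie together with the risers Zfp260, Zfp292 and Zfp266.

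Other zinc finger families were listed for comparison. Of the Zbtb genes, which pair fingers with a BTB domain, 24 were tested, and 3 were lower and 2 higher by adjusted p (20.8%, against 15.2% of all genes tested). Of 11 Zscan and Zkscan genes 1 was lower (9.09%), of 12 Zc3h genes, which bind RNA, 1 was lower (8.33%), and of 9 Klf genes none passed by edgeR, with 3 at an unadjusted p under 0.05. The Zfp members held a median of 8 fingers (0 to 27), and across the 103 members the number of fingers and the log2 fold change had a Pearson r of -0.05 and a Spearman rho of 0.00. The 3′ ends were largely distinct, since 86 of 103 shared no 31-base word with another gene. The 2 with more than 10% shared, Zfp747 (36.4%) and Zfp959 (21.1%), are uncertain for that reason, and neither passed the test. The counted ends of Zfp131, Zfp143 and Zfp507 overlap noncoding genes on the opposite strand (Gm41077, 1600010M07Rik and Gm26790). Of these genes 1600010M07Rik was in the matrix, with 0 counts. All overlaps with other genes were read from whole annotated spans, introns included.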

How the data were processed

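RNA of 4 B16F10 libraries (2 shControl, 2 shLmna) was profiled by 3′ MARS-seq. The authors trimmed reads with Cutadapt and aligned them to mm10 with STAR 2.4.2a. They used HTSeq to count reads in the final 1000 bases of each RefSeq gene and a short stretch downstream. The deposited matrix holds these raw counts. Their methods mark duplicates and then count UMIs with a modified HTSeq-count. Whether the matrix holds the counts from before or after that step, and the strand setting, are not given in the sources used here. A deposited signal, counts divided by DESeq2 size factors, gave back whole reads for 100% of values (tolerance 0.01), and the matrix totals were 1.08 to 1.09 times these. Deposited log2 values, batch-corrected by the authors with ComBat over batches not named, compress low levels (Lmna changed by -1.54 on them, against -2.61 on the counts). The p-values of the authors were not used.

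The members and all lists were chosen with earlier results of these data known. Genes passing filterByExpr (9150) were fitted with edgeR 4.0.16 (R 4.3.3), TMM factors, group as the only term and a two-sided quasi-likelihood F test. SE were taken from the F statistic. The code was tested on simulated data. Alternatives used DESeq2 1.42.0, limma 3.58.1 on the ComBat values, the recovered counts, other scalings, no filter, a GC offset, a replicate block and leaving out each library. Replicates differed by more than counting noise (chi-square per degree of freedom 6.96 and 3.91). The correlation of the deviations of same-numbered libraries was 0.01, so the numbers were not taken as pairs.

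Positions, GC content, shared 31-base words and the coding sequences, translated to find C2H2 and KRAB patterns, came from GENCODE M21 (GRCm38); no table of RefSeq proteins was used here, and the KRAB pattern was adjusted on the protein sequences only. Named genes were Lmna, every member with an adjusted p under 0.05 and the 8 most abundant members. The rule also named 2 members on each side of the count minimum, Trim28 and Setdb1. It further named genes of the corepressor list with an adjusted p under 0.05. One gene that this rule names is not reported here. Others named were chosen after their values were seen.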

Additional observations from a re-analysis of the deposited data

How the results depend on the processing

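All 13 members with an adjusted p under 0.05 kept their direction under every alternative run, and 8 of them kept an adjusted p under 0.05 in all 9 alternatives that used all 4 libraries. The exceptions were Zfp131 and Zfp507 with the GC offset and Zfp143, Zfp292, Zfp691 and Zfp507 with DESeq2. Members called lower and higher were 5 and 4. DESeq2 gave 2 higher, and limma on the ComBat log2 values, whose changes are compressed, gave 0 lower and 0 higher, while by adjusted p alone it gave 18 lower and 20 higher members. By adjusted p DESeq2 gave 3 higher members. With a minimum of 50 counts (145 genes) 8 were called lower, and with a minimum of 200 (65 genes) 3 were called lower and 2 higher.

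With 1 library left out, where a lone library is assumed to vary like the other group, 2 to 6 members were called lower and 0 to 6 higher, and by adjusted p 2 to 10 were lower and 1 to 8 higher. The fewest lower calls came without shLmna replicate 1 and no higher call remained without shLmna replicate 2. Of all tested genes, 538 were called lower and 161 higher; limma on ComBat values gave 27 and 2, DESeq2 gave 74 higher, and leaving out 1 library gave 387 to 744 lower and 60 to 232 higher. For the corepressor list, with 2 lower and 2 higher by adjusted p, limma gave 4 lower, DESeq2 0 higher and the recovered counts 1 higher, and leaving out 1 library gave 1 to 4 lower and 0 to 2 higher. Turned signs were looked for only among the genes that the naming rule lists, not among all members. Of these, 4 that had not passed the test changed sign when 1 library was left out. Log2 fold changes then ran from -0.033 (without shLmna replicate 2) to 0.15 for Zfp414. They ran from -0.33 to 0.29 for Zfp646 (0.077 without shLmna replicate 2). For Zfp866 they ran from -0.30 to 0.20 (0.082 without shLmna replicate 2), and for Zfp141 from -0.032 (without shControl replicate 1) to 0.84. The cause was not tested.

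With the replicate number as a block, 6 members were called lower and 4 higher, and 9 and 8 by adjusted p. The block added Zfp637 (adjusted p = 0.0255) among the named genes and ended no call. With the block and the GC offset together 5 were called lower and 5 higher.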
